A study of Mus musculus with 9 samples.

Results

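Cytosolic ribosomal protein genes encode the protein subunits of the ribosome that translates nuclear messenger RNAs. They were taken from the count table by symbol: every symbol that starts with Rpl, Rps or Rplp followed by a digit, leaving out rows named as pseudogenes and the Rps6k kinases. The rule found 91 of 45808 genes. Of these, 46 are core large subunit genes, 30 are core small subunit genes and 14 are paralogs or retrogenes of such genes. The last, Rps19bp1, is named for binding Rps19 and is not itself a ribosomal protein. Ribosomal proteins with other symbols (such as Rpsa, Fau and Rack1, listed under its older symbol Gnb2l1) lie outside the rule.

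The RNA came from CD4 T cells that carried the activation receptor ICOS (ICOS+) and were sorted out of tumours of MC38, a colon adenocarcinoma line grown in C57BL/6J mice, at day 12 after the tumour cells were injected. Each of 9 libraries came from 1 mouse: 3 were labelled Control, 3 anti-CTLA-4 and 3 anti-PD-1. All groups carried the same tumour, and the series title asks whether the 2 checkpoint antibodies act through distinct cellular mechanisms. The sources used here do not give the control treatment, the antibody clones and doses, or how many cells were sorted. RNA from single mice was amplified with a kit made for single cells before sequencing as 76-nt pairs.

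A ribosome has a large subunit, which joins amino acids, and a small subunit, which decodes the messenger RNA. Most of their proteins are present once per ribosome. In mammals the messenger RNAs of these proteins mostly begin with a run of pyrimidines, the 5' terminal oligopyrimidine (TOP) motif, through which the mTOR pathway and the RNA-binding protein LARP1 set how much of them is translated. T cells that leave rest after antigen contact are known for raising ribosome production.

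Gene counts summed to 25530333 to 41508589 per library, so a count of 3, used here as a floor, equals 0.0723 to 0.117 counts per 1000000 gene counts (CPM). Floors and intervals of this kind cover counting error only. The anti-CTLA-4 replicate 2 library stood apart. It had 2662 genes at 5 CPM or more, against 4209 to 6309 in the other libraries, with anti-PD-1 replicate 2 the next lowest. Cd3e, a defining T cell receptor subunit, had 0.590 CPM there and 347 to 838 CPM in the others, and Cd4 was at 24.5 CPM. Other T cell RNA was present: 13 CD4 T cell markers summed to 3755 CPM there and 7616 to 10820 CPM in the others. The 4 regulatory T cell markers summed to 4295 CPM there and 9832 to 15729 CPM in the others. Among them, Foxp3 was at 898 CPM there and 2362 to 3901 CPM in the others. The summed level of 14 macrophage and monocyte markers was 7634 CPM there, led by Tyrobp at 1874 and Lyz2 at 1492 CPM, and 271 to 1102 CPM in the others. Summed fibroblast markers (5 genes) were at 1587 CPM there and 31.4 to 376 CPM in the others, and neutrophil markers (4 genes) at 267 CPM and 0 to 34.0 CPM. Cd8a was at 0 in all 9 libraries. The other CD8 T cell marker, Cd8b1, was at 125 CPM in anti-PD-1 replicate 3 and at 0 to 0.118 CPM in the others. Some results that rest on anti-CTLA-4 replicate 2 are given with and without it. Others are given only with it, among them the ranges over libraries and the counts by subunit and by list of companion genes. The fits of Rps21, Ebna1bp2 and Polr1a are also given only with it. The part of the other cells' RNA in all these results was not tested.

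Ribosomal protein genes took a small and similar share of gene counts in the 3 groups. The share was 3.60%, 2.06% and 2.50% in Control replicates 1 to 3, a mean of 2.72% ± 0.792 (SD, n = 3). It was 2.55%, 3.37% and 3.43% with anti-CTLA-4, a mean of 3.12% ± 0.490 (SD, n = 3), and 3.22%, 3.62% and 2.51% with anti-PD-1, a mean of 3.11% ± 0.562 (SD, n = 3). The highest and the lowest Control libraries spanned most of the range of both antibody groups, and the groups overlapped. The share is not a test of the antibodies, and fewer cells of a type and less RNA per cell cannot be told apart in these bulk samples.

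Large subunit genes held 1.35% to 2.33% of gene counts and small subunit genes 0.694% to 1.42%. Their ratio was 1.5, 1.94 and 1.73 in the Control libraries, 1.55, 2.40 and 1.87 with anti-CTLA-4, and 1.71, 1.67 and 1.64 with anti-PD-1. The highest ratio, 2.40, was that of anti-CTLA-4 replicate 2; apart from it the ratio lay between 1.5 and 1.94, and the 3 groups overlapped.

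**Figure D1:**
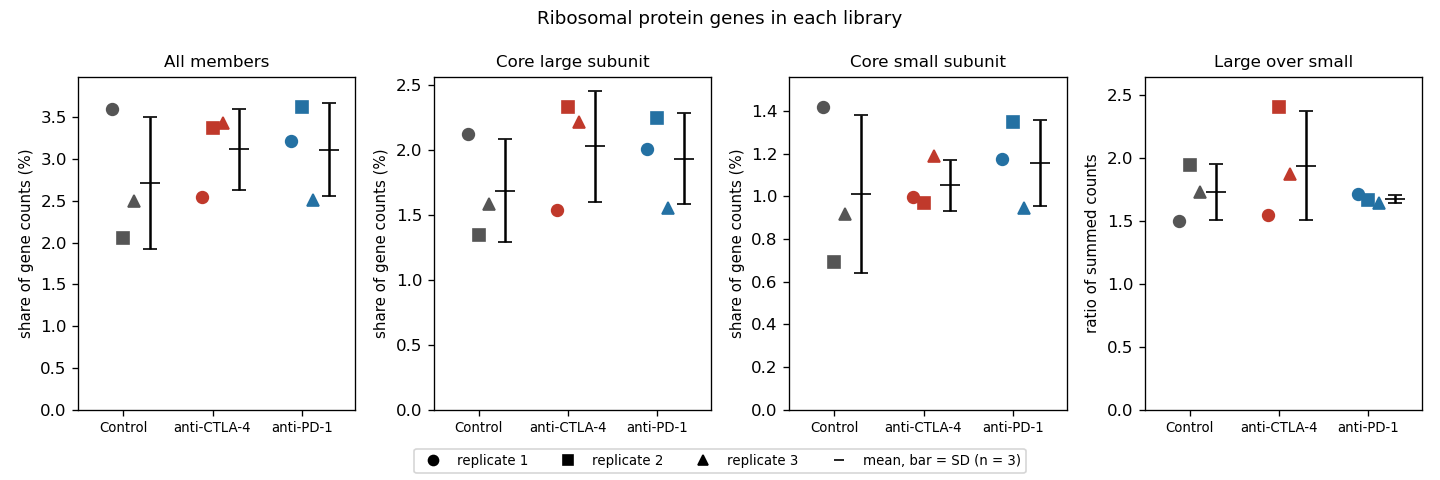
Share of gene counts (%) taken by all ribosomal protein genes by symbol, by core large subunit genes and by core small subunit genes, and the ratio of large to small subunit counts, in each of 9 libraries; bars are mean and SD over 3 libraries. The libraries of the 3 groups overlap in every panel, and anti-CTLA-4 replicate 2 has the highest ratio, 2.40.

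Detection was close to complete for the core genes. The number of the 91 genes at 5 CPM or more was 80, 74 and 74 in the Control libraries, 75, 64 and 76 with anti-CTLA-4 and 77, 70 and 76 with anti-PD-1. Both lowest counts fell in the 2 libraries that detected the fewest genes of any kind. Of the 76 core genes, 53 reached 5 CPM in all 9 libraries, and 61 did so in the 8 libraries other than anti-CTLA-4 replicate 2. The 76 core genes and 9 libraries give 684 values, of which 20 were at or under 3 counts. These 20 values came from 10 genes, and 7 of them from anti-CTLA-4 replicate 2. Rpl24 was at or under 3 counts in 6 libraries, Rps29 in 4, and Rpl36 and Rps28 in 2 each.

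The paralogs were mostly silent. Of 14, 5 were at 0 in all 9 libraries: Rpl10l, Rpl39l, Rpl3l, Rps12l2 and Rps4l. These include Rpl10l, known from the male germ line, and Rpl3l, known from muscle. Another 5 reached 5 CPM in at least 1 library: Rpl22l1, Rpl36al, Rpl7l1, Rps27l and Rps3a2.

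Rpl22l1, the paralog of the RNA-binding large subunit protein Rpl22, ranged from 1.80 CPM in Control replicate 2 to 217 CPM in anti-CTLA-4 replicate 2. Rpl22 itself stayed between 157 and 532 CPM. Rpl36al had a mean of 67.3 CPM over the 9 libraries and its parent Rpl36a 170 CPM. These 2 differ little in the protein they encode, and 84.6% of the 76-base windows of the Rpl36a transcript also occur in transcripts of genes elsewhere in the genome, so their counts are uncertain.

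Rps27l, a p53 target and the paralog of Rps27, varied more than any other ribosomal protein gene at 5 CPM or more on average. It was at 258, 1.16 and 0.0279 CPM in the Control libraries, 0.525, 402 and 0.275 CPM with anti-CTLA-4, and 73.4, 0.0302 and 15.7 CPM with anti-PD-1. High and near-absent libraries occurred in every group. Rps27 ranged from 0.112 to 118 CPM, its lowest value again in anti-CTLA-4 replicate 2. Rpl7l1 was above 5 CPM in 3 libraries (31.3, 40.5 and 97.5 CPM) and at 0 in 5 of the other 6, while its parent Rpl7, also a large subunit gene, ranged from 14.1 to 605 CPM. Rps3a2 exceeded 5 CPM in Control replicate 2 (55.3 CPM), anti-PD-1 replicate 2 (131 CPM) and anti-PD-1 replicate 3 (8.88 CPM).

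Levels differed widely between core genes, and a few genes carried much of the total. The 5 most counted genes held 29.1% of all ribosomal protein counts and the 10 most counted 44.1%. To compare genes, mean CPM was divided by transcript length in GENCODE M21, in CPM per kb. Over the 76 core genes this level had a median of 325 CPM per kb, from 0.927 for Rpl24 to 3145 for Rpl37a. The median was 364 CPM per kb for large subunit genes and 268 CPM per kb for small subunit genes.

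The highest levels per kb were those of Rpl37a (3145), Rpl11 (1983), Rps24 (1594), Rpl37 (1460), Rps4x (1087) and Rps13 (1054 CPM per kb). Rpl37a and Rpl37 encode small zinc-binding proteins of the large subunit. Rpl11 is known for binding MDM2 when ribosome assembly is disturbed. Rps24 is a small subunit gene mutated in some patients with Diamond-Blackfan anaemia, and Rps4x is an X-linked small subunit gene. In GRCm38 coordinates of the GENCODE M21 annotation, Rpl37a spans chr1:72711290-72713813, Rpl11 spans chr4:136028265-136053428 and Rps24 spans chr14:24487125-24496959. The Rps24 transcript used has 1613 bases, longer than most, so its per-kb level depends on that choice.

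Rps24 had the highest unscaled level of the group. It was at 2791, 1254 and 1978 CPM in the Control libraries, 2914, 1610 and 2896 CPM with anti-CTLA-4, and 3031, 4219 and 2453 CPM with anti-PD-1. The lowest value was that of Control replicate 2 and the highest that of anti-PD-1 replicate 2, and the groups overlapped. Rpl37a was at 1915, 1173 and 1627 CPM in the Control libraries, 1454, 1524 and 1959 CPM with anti-CTLA-4 and 2264, 1938 and 1941 CPM with anti-PD-1. Every anti-PD-1 library exceeded every Control library for Rpl37a, by little in 2 of them.

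The lowest levels among core genes were Rpl24 (0.927), Rps20 (14.7), Rps16 (49.8) and Rps28 (53.7 CPM per kb). Rpl24, a large subunit gene at chr16:55966275-55971435, was at 0 in 5 libraries and highest in anti-PD-1 replicate 3, at 4.59 CPM. Of its transcript, 71.49% lies under Gm28037, another gene on the same strand, and 76.7% of its 76-base windows occur in genes elsewhere, so counting could set its reads aside as ambiguous or not unique. Whether that happened was not tested, and the level listed for Rpl24 is uncertain. Rps20 was divided by a transcript of 3706 bases, and its counts ranged from 0.181 to 132 CPM.

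Many core genes have near-identical copies in the genome, which is known of this family. For the 76 core genes, a median of 45.5% of 76-base transcript windows occurred in transcripts of genes at other loci, and the share was above 50% for 33 of them. Rps3 had none. Level and shared sequence were only weakly related: over the 76 genes of these same libraries, Spearman's rho between the level per kb and the share of shared windows was -0.19. The 38 genes with fewer shared windows had a median of 390 CPM per kb and the 38 with more had 294 CPM per kb. The 258 rows named as ribosomal protein pseudogenes held 0.00687% to 0.0627% of gene counts.

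**Figure D2:**
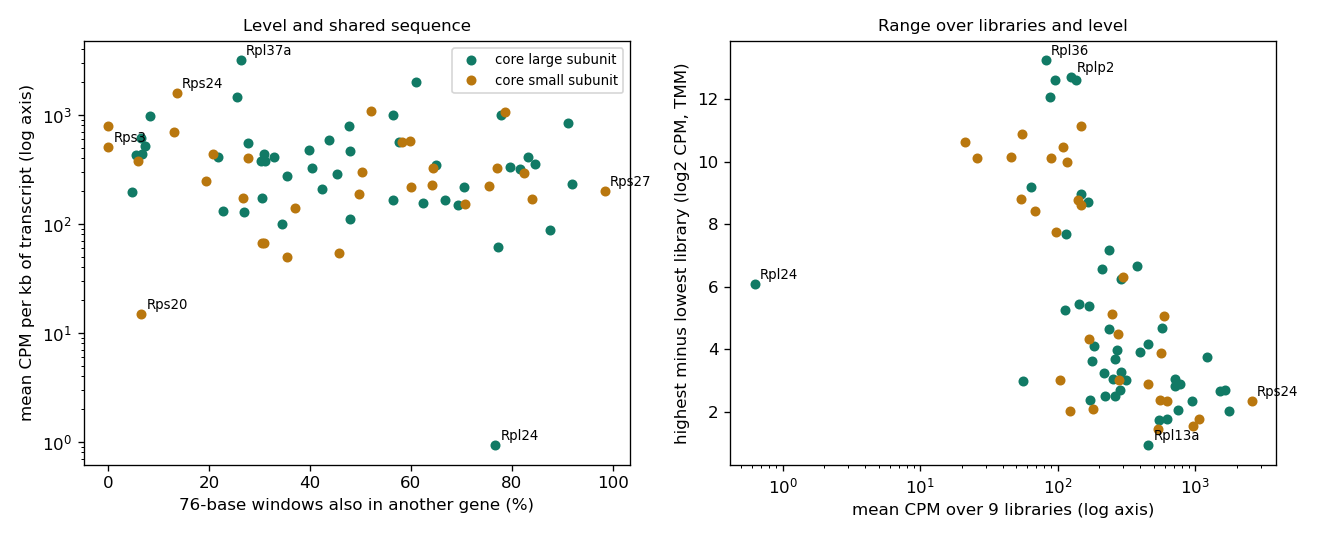
Left: mean level of 76 core genes (CPM per kb, log axis) against the share of their 76-base windows that occur in another gene (%). Right: the range over 9 libraries (highest minus lowest log2 CPM) against the mean level (CPM, log axis). Rpl24 lies alone at 0.927 CPM per kb, and on the right genes with lower means have wider ranges, with Rpl36 among the widest.

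The promoters of these genes were compared with all promoters in RefSeq (GRCm38.p6), in windows from 250 bases before to 50 bases after each annotated start. Of the 76 core genes, 56 matched, with 66 windows. In the last 100 bases of the window, a run of at least 8 pyrimidines on the sense strand occurred in 54 of 66 core windows (81.8%) and in 35.7% of all 32851. The median longest run was 11 bases in core windows and 7 in all. The motif CCGGAAG, the core of ETS family binding sites, searched on both strands, was found in 24 of 66 core windows (36.4%) and in 8.86% of all. CCGGAAGT, which contains it, was found in 15.2% and 3.89%. AAGATGGC, the core of the YY1 motif, also on both strands, was found in 10.6% and 2.75%. CTCTTTCC, a TOP-like run on the sense strand that overlaps the pyrimidine runs, was found in 15.2% and 1.5%. A match describes letters in a window and not a site in use, and no measurement here bears on binding.

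The stretches below show, in capitals, the longest pyrimidine run in the 100 bases searched, with its flanks. They cover the 6 genes with the highest level per kb, and Rps9 and Rpl23, which the test among groups singled out. They also cover Rpl24, Rps16 and Rps28, which were among the lowest. For Rps24, which has 2 windows, the one with the longer run is shown. Counted from the annotated start, the runs begin at 23 in Rpl37a, 13 in Rpl11, -37 in Rps24, 28 in Rpl37, 40 in Rps4x and 12 in Rps13. They begin at -6 in Rps9, 18 in Rpl23, -36 in Rpl24, -47 in Rps16 and -21 in Rps28. None begins at the annotated start, so the stretches are not shown to be TOP motifs. Each is 30 bases, read 5′ to 3′ on the gene's strand, at chr1:72711274-72711303 (plus strand) for Rpl37a, chr4:136053358-136053387 (minus) for Rpl11, chr14:24490710-24490739 (plus) for Rps24, chr15:5116631-5116660 (plus) for Rpl37, chrX:102189342-102189371 (minus) for Rps4x, chr7:116334161-116334190 (minus) for Rps13, chr7:3704024-3704053 (plus) for Rps9, chr11:97782404-97782433 (minus) for Rpl23, chr16:55966227-55966256 (plus) for Rpl24, chr7:28350631-28350660 (plus) for Rps16 and chr17:33824567-33824596 (minus) for Rps28.
Rpl37a: cgcattgcgTCCCTTCCTCTTCggacttgg
Rpl11: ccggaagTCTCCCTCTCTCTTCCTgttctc
Rps24: gagcggTCCTCTTTTCCTCCTCTCCagctc
Rpl37: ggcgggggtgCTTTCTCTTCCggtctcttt
Rps4x: cgcgcagcctccgaccctaaTTTCTTCgtt
Rps13: tgagtggcgtcaCTTCCTgtgcggcttgat
Rps9: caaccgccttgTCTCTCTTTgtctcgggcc
Rpl23: gagtgggcggggCCTCCCgttcatatccca
Rpl24: acctcaaacccaCTCCCCgccaatgctgta
Rps16: caattcacacgTCCCCTCTCaggcttcgac
Rps28: tctgtcccgaggaTTCCTgggtaccgcgtg
The capitals run for 13 bases in Rpl37a, 17 in Rpl11, 19 in Rps24, 11 in Rpl37, 7 in Rps4x and 6 in Rps13, among the highest genes. They run for 9 bases in Rps9 and 6 in Rpl23, and among the lowest genes for 9 in Rps16, 6 in Rpl24 and 5 in Rps28. Genes with and without a run of 8 in the 100 bases searched thus occur at both ends of the level range.

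Few ribosomal protein genes swung between near-absent and abundant. Between the highest and lowest library, 21 of the 76 core genes (27.6%) had under 30 counts in one and over 1000 in another, against 77.9% of all genes tested. Much of this went with level: the range over libraries and the mean CPM had a Spearman's rho of -0.72 over the 76 core genes. Other genes nearer in level were the 1432 with a mean log2 CPM of 5.51 to 8.72. These limits were the lower and upper quartiles of the 83 tested ribosomal protein genes. All 83 were kept, so levels were only partly matched. Beside the 1432, ribosomal protein genes varied more in the Control and anti-PD-1 groups and less with anti-CTLA-4. The median SD of log2 CPM over 3 libraries was 0.840 for the 83 ribosomal protein genes and 0.689 for the 1432 other genes in the Control group. It was 0.994 and 0.937 with anti-PD-1, and 1.33 and 2.10 with anti-CTLA-4. Without anti-CTLA-4 replicate 2 the last pair was 0.639 and 0.650.

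Under TMM scaling, the steadiest genes were Rpl13a, with a range of 0.93 on the log2 scale, Rps7 (1.46), Rps3 (1.54), Rpl3 (1.74) and Rps4x (1.76). This order depends on the scaling. In CPM without TMM factors, Rps7 ran from 162 to 798, a wider spread than that of Rpl3, from 393 to 754. Rpl13a, a large subunit gene often used as a reference gene, was at 428, 495 and 459 CPM in the Control libraries, 441, 209 and 527 CPM with anti-CTLA-4, and 410, 560 and 579 CPM with anti-PD-1. All but 1 library lay between 410 and 579 CPM, and that library, anti-CTLA-4 replicate 2, moves up once its TMM factor of 0.407 is applied. Rps3, a small subunit gene at the messenger RNA entry channel, ranged from 702 to 1224 CPM.

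At the other end, after Rps27l, stood Rpl36 (13.2), Rplp2 (12.7), Rpl27 (12.6) and Rpl12 (12.6 on the log2 scale). Rpl36 was at 12.7, 146 and 51.1 CPM in the Control libraries, 61.0, 225 and 0 CPM with anti-CTLA-4, and 243, 0.0604 and 2.89 CPM with anti-PD-1. Each antibody group thus held both a high and a near-absent library. Rpl12 was at 0 in anti-CTLA-4 replicate 2 and at 15.4 to 318 CPM elsewhere.

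The stalk genes encode the acidic proteins that recruit elongation factors to the large subunit. Rplp0, the stalk's base, was at 64.4 to 316 CPM. Rplp1 ranged from 5.40 to 297 CPM and was lowest in anti-CTLA-4 replicate 2, whereas Rplp2, its partner in the heterodimer, reached its highest value there, 470 CPM, and its lowest, 0.131 CPM, in anti-CTLA-4 replicate 1. Rplp1 and Rplp2 therefore did not move together between these libraries.

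**Figure D3:**
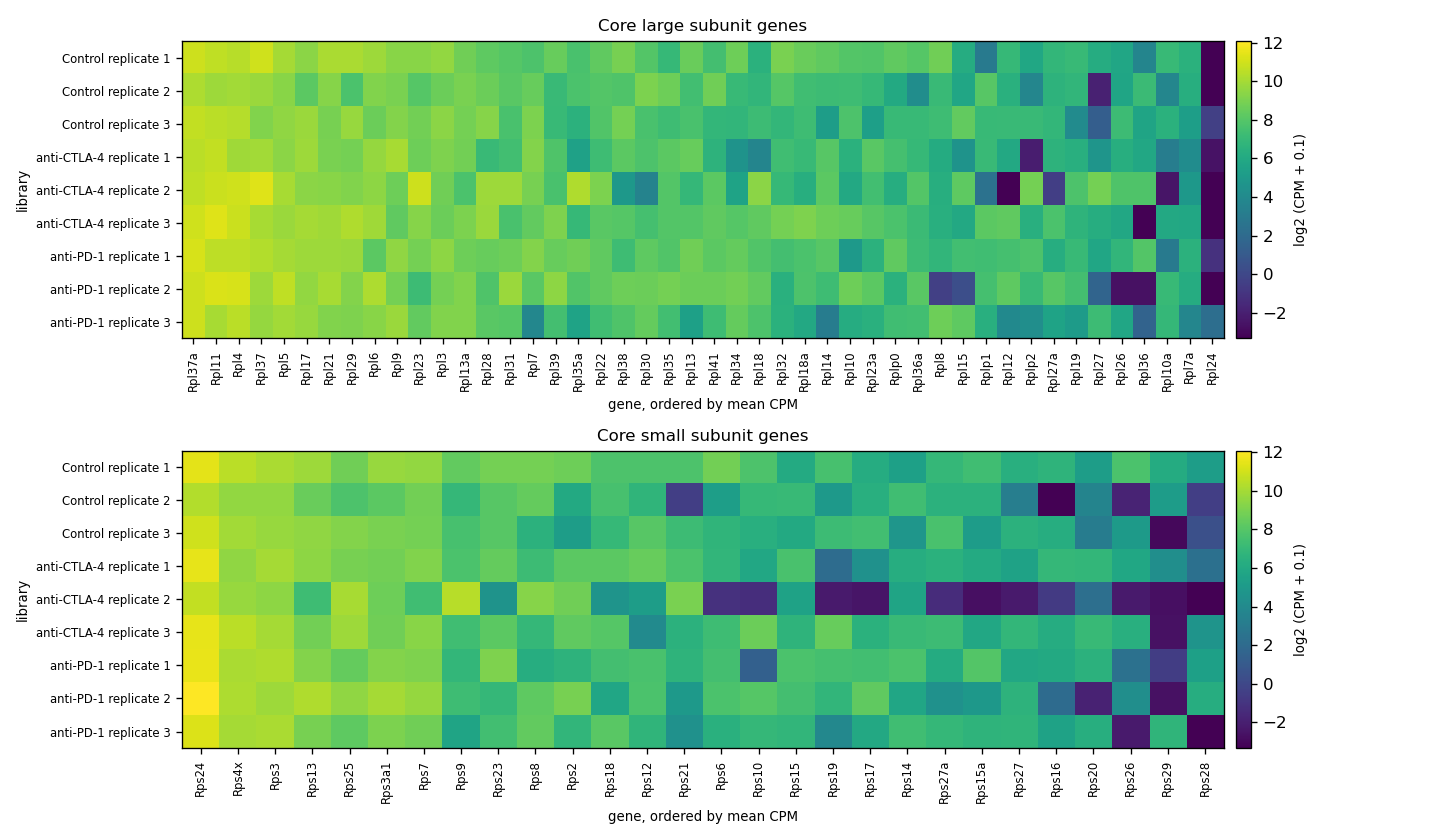
Level of core large subunit genes (top) and core small subunit genes (bottom), as log2 of CPM plus 0.1, in each of 9 libraries; genes are ordered by mean CPM, and items not reported here are left out. Dark cells are near-absent values: Rpl24 is dark in most libraries, and anti-CTLA-4 replicate 2 has the most dark cells among the small subunit genes.

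The order of the core genes was shared by most libraries. Spearman's rho between 2 libraries over the 76 core genes was 0.668 to 0.810 (median 0.738) for the 28 pairs without anti-CTLA-4 replicate 2 and 0.569 to 0.661 (median 0.597) for the 8 pairs with it. Among the 28 pairs, those within a group had a median of 0.733 and those between groups 0.741, so libraries of a group resembled each other no more than libraries of different groups did. Over all genes tested, rho was 0.464 to 0.561 and 0.417 to 0.477. Anti-CTLA-4 replicate 2 was the lowest library for 22 core genes (28.9%) and the highest for 16 (21.1%), against 32.5% and 12.1% of all genes tested.

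The antibody groups were compared gene by gene with edgeR's quasi-likelihood test over all 7858 genes with enough counts, with Benjamini-Hochberg adjustment over all of them. Of the 91 ribosomal protein genes, 83 were tested, among them all 76 core genes. The 8 not tested were Rpl10l, Rpl37rt, Rpl39l, Rpl3l, Rps12l1, Rps12l2, Rps27rt and Rps4l. No ribosomal protein gene passed an adjusted p of 0.05 in any comparison of 2 groups, where 0.369% of all genes tested passed for anti-CTLA-4 against control, 0.0764% for anti-PD-1 against control and 0.827% for anti-CTLA-4 against anti-PD-1. At an unadjusted p under 0.05 there were 11 of 83 for anti-CTLA-4 against control (background 11.3%), 2 of 83 for anti-PD-1 against control (background 6.01%) and 8 of 83 for anti-CTLA-4 against anti-PD-1 (background 14.1%). These shares were near or below the background.

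DESeq2, run as a second test, called 0 members of the symbol rule for anti-CTLA-4 against control (background 10%), 1 for anti-PD-1 against control (Rps19bp1, background 7.55%) and 3 for anti-CTLA-4 against anti-PD-1 (Rpl28, Rpl7l1 and Rps19bp1, background 15.2%). It gave an adjusted p to only 46 of the 83. Rps19bp1 was at 51.7, 29.3 and 0.0279 CPM in the Control libraries, 0.0328, 22.7 and 50.4 CPM with anti-CTLA-4, and 0, 0.0604 and 0 CPM with anti-PD-1. Near-absent libraries occurred in all 3 groups.

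A test of any difference among the 3 groups called 2 of the 83, Rpl23 (edgeR's quasi-likelihood test, adjusted p = 0.0185) and Rps9 (edgeR's quasi-likelihood test, adjusted p = 0.0214), where 1.53% of all genes tested passed; 9 of the 83 had an unadjusted p under 0.05 (background 8.97%). The calls did not outlast leaving out single libraries: none of the 83 was called without anti-CTLA-4 replicate 2, without any 1 of the 3 Control libraries, or without anti-PD-1 replicate 1 or 3, and 1 was called without anti-PD-1 replicate 2. DESeq2's likelihood ratio test also called 0 (background 1.29%). It gave an adjusted p to only 44 of the 83, and a gene without one could not be called.

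Rpl23, a large subunit gene at chr11:97777527-97782437, is another of the proteins known to bind MDM2. It was at 644, 255 and 440 CPM in the Control libraries, 403, 1903 and 622 CPM with anti-CTLA-4, and 460, 153 and 326 CPM with anti-PD-1. Only anti-CTLA-4 replicate 2 lay above the range of the Control group. The fitted log2 fold change of anti-CTLA-4 against anti-PD-1 was 2.73 (approximate SE 0.791; edgeR's quasi-likelihood test, adjusted p = 0.0566), and it was 0.76 without that library (adjusted p = 0.691). Against control it was 2.36 (approximate SE 0.780; adjusted p = 0.223), and 0.39 without that library.

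Rps9, a small subunit gene that takes part in decoding, lies at chr7:3703993-3706897. It was at 326, 121 and 191 CPM in the Control libraries, 210, 1371 and 163 CPM with anti-CTLA-4, and 118, 156 and 49.9 CPM with anti-PD-1. Every anti-CTLA-4 library exceeded every anti-PD-1 library, with 163 CPM the lowest of the first and 156 CPM the highest of the second. The fitted log2 fold change between these groups was 3.50 (approximate SE 1.02; edgeR's quasi-likelihood test, adjusted p = 0.0588), and 0.65 without anti-CTLA-4 replicate 2 (adjusted p = 0.965).

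The other genes with the lowest p for anti-CTLA-4 against control were Rpl35a (fitted log2 fold change 2.95), Rpl37 (1.53) and Rpl11 (1.41), none past the threshold. Rpl35a, a large subunit gene, was at 1226 CPM in anti-CTLA-4 replicate 2 and at 44.5 and 125 CPM in the other 2 anti-CTLA-4 libraries, below 2 or more of the Control libraries (200, 211 and 96.1 CPM). Its fitted log2 fold change against control turned to -0.79 without anti-CTLA-4 replicate 2. That of Rpl37 was 0.019 without it. Rpl11 was at 1564, 893 and 1405 CPM in the Control libraries, while the anti-CTLA-4 libraries had 1620, 1862 and 2548 CPM. Rpl11 kept a fitted log2 fold change of 0.88 without anti-CTLA-4 replicate 2 (edgeR's quasi-likelihood test, adjusted p = 0.657), and the groups did not overlap. With anti-PD-1 it was at 1514, 2392 and 1065 CPM, within reach of both other groups.

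For anti-PD-1 against control, the core genes with the lowest p were Rps24 (fitted log2 fold change 0.97), Rpl31 (1.40), Rpl4 (0.77) and Rpl11 (0.68), none past the threshold. Rpl31, a large subunit gene near the exit of the peptide tunnel, was at 262, 279 and 197 CPM in the Control libraries, while the anti-PD-1 libraries had 405, 859 and 258 CPM. Rpl4, a large subunit gene that lines the tunnel, was at 1360, 981 and 1337 CPM in the Control libraries, while the anti-PD-1 libraries had 1508, 2219 and 1410 CPM, with no overlap. In each of these 4 genes anti-PD-1 replicate 2 was the highest anti-PD-1 library, and without it the fitted log2 fold changes were 0.51, 0.51, 0.32 and 0.07. For anti-CTLA-4 against anti-PD-1, Rps21, a small subunit gene, had a fitted log2 fold change of 3.37 (edgeR's quasi-likelihood test, adjusted p = 0.333). The anti-CTLA-4 libraries were at 213, 500 and 93.4 CPM and the anti-PD-1 libraries at 105, 31.8 and 21.9 CPM, while the Control libraries reached from 0.611 to 216 CPM.

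**Figure D4:**
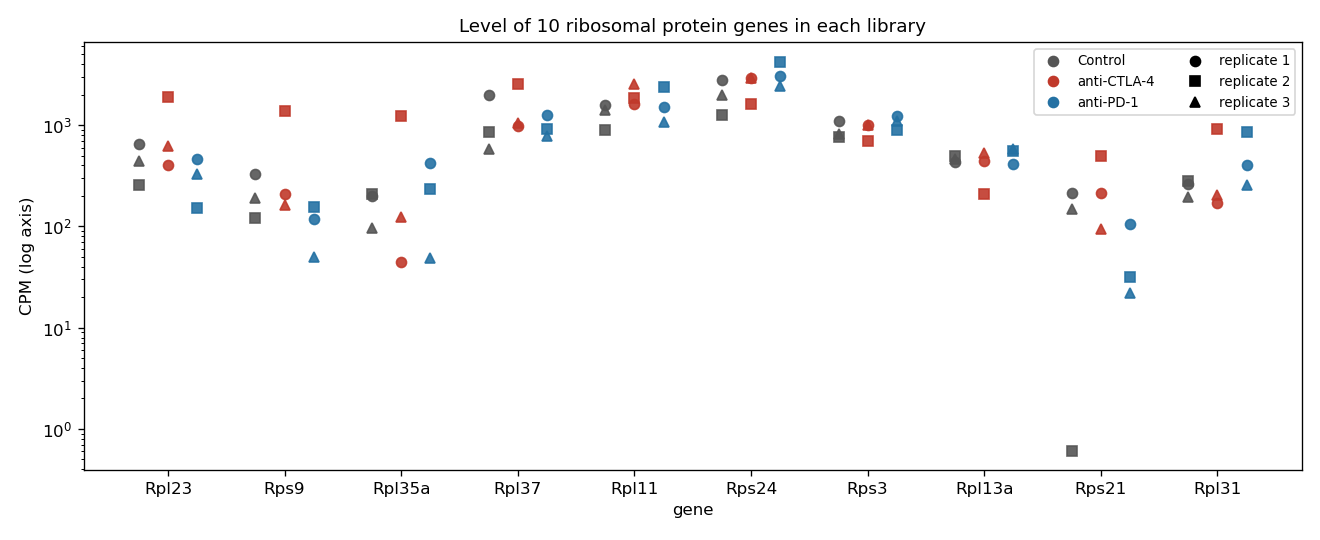
Level of 10 ribosomal protein genes (CPM, log axis) in each of 9 libraries, with the group as colour and the replicate as shape. Anti-CTLA-4 replicate 2 (red squares) lies far above the other libraries for Rpl23, Rps9 and Rpl35a and below them for Rpl13a, while Rps3 stays between 702 and 1224 CPM.

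Few genes had groups that did not overlap. For anti-CTLA-4 against control there were 3 of 83 (among them Rpl11 higher and Rpl8 lower), against 11.9% of all genes tested in either direction and 1.57% higher. For anti-PD-1 against control there were 3 (Rpl18, Rpl37a and Rpl4, all higher), against 10.8% in either direction and 3.45% higher. For anti-CTLA-4 against anti-PD-1 there were 4 (Rps9 higher, Rpl30, Rpl34 and Rps3a1 lower), against 9.76% in either direction and 2.81% higher. Rpl8, a large subunit gene, was at 425, 139 and 159 CPM in the Control libraries, while the anti-CTLA-4 libraries had 70.9, 80.7 and 84.6 CPM. Its fitted log2 fold change was -0.80 (edgeR's quasi-likelihood test, adjusted p = 1) and 1.71 with DESeq2's size factors, so its fitted direction turned with the scaling.

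As a list, the fitted changes were more often positive than those of all genes tested. Under TMM scaling, of 83, 61 had a positive fitted change for anti-CTLA-4 against control (median log2 0.69; all genes 50.2% positive, median 0.01), 63 for anti-PD-1 against control (median 0.44; all genes 52.4%, median 0.07) and 51 for anti-CTLA-4 against anti-PD-1 (median 0.24; all genes 49.1%, median -0.05). With library totals alone the 3 counts were 45, 52 and 38, with medians of 0.07, 0.17 and -0.14 (all genes -0.34, -0.12 and -0.21). With RLE factors they were 70, 70 and 68, with medians of 2.88, 0.67 and 2.09 (all genes 0.56, 0.26 and 0.45). Without anti-CTLA-4 replicate 2 they were 52, 63 and 34, and without anti-PD-1 replicate 2, 62, 44 and 62 of 84. The 2 comparisons with control share the Control libraries. In both comparisons with control, under each scaling, test and left-out library run, more than 50% of the members had a positive fitted change and their median lay above that of all genes. For anti-PD-1 against control, the list median was 0.05 without anti-PD-1 replicate 2, where that of all genes was -0.13. For anti-CTLA-4 against anti-PD-1 the list median was negative with library totals and without anti-CTLA-4 replicate 2 (-0.16; all genes -0.20), and below that of all genes without anti-PD-1 replicate 3 (0.17; all genes 0.21). All genes tested, the background here, were not matched to the list in level or in spread between libraries. These counts and medians describe the list and are no test of it.

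By subunit and under TMM, large subunit genes had positive fitted changes in 39, 38 and 33 of 46 for the 3 comparisons in the same order, and small subunit genes in 18, 20 and 14 of 30. Counts by subunit were not made under other scalings or without anti-CTLA-4 replicate 2, whose large to small ratio was the highest. Over all 83 genes, leaving out that library changed the counts from 61, 63 and 51 to 52, 63 and 34. The 3 stalk genes were positive in 3, 3 and 2. edgeR's quasi-likelihood test called none of these genes between 2 groups.

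Genes that work with the ribosomal proteins were looked at as lists, with edgeR's quasi-likelihood test and then DESeq2, which gave an adjusted p to only some members of each. Of 15 elongation factors and other TOP messenger RNAs, 0 were called in any comparison of 2 groups by either tool, and their fitted changes were positive in 14, 7 and 13. Eef1a1, which brings aminoacyl-tRNA to the ribosome, was steady, at 1946 to 3130 CPM, and Tpt1 was at 461 to 1993 CPM with its lowest value in anti-CTLA-4 replicate 2. Of 12 genes for the control of ribosomal protein production (Larp1, mTOR pathway genes and transcription factors), edgeR called 0, and Larp1 had the highest mean, 474 CPM. Against control, DESeq2 called 1 of the 9 to which it gave an adjusted p (background 10% for anti-CTLA-4 and 7.55% for anti-PD-1). This was Rps6kb2, a ribosomal protein S6 kinase gene named after its values were seen. It was higher with each antibody than in control (DESeq2, adjusted p = 0.0283 for anti-CTLA-4 and 0.00349 for anti-PD-1). Rps6kb2 was at 0.0241, 0.322 and 1.48 CPM in the Control libraries, 62.9, 0.0281 and 18.4 CPM with anti-CTLA-4, and 112, 75.4 and 6.52 CPM with anti-PD-1. Of 38 tested mitochondrial ribosomal protein genes, edgeR called 0, with 24, 22 and 19 positive. DESeq2 gave an adjusted p to 21 of them in each comparison of 2 groups. It called 4 higher and 1 lower for anti-CTLA-4 against control (background 10%). For anti-PD-1 against control it called 3 higher and 1 lower (background 7.55%), and for anti-CTLA-4 against anti-PD-1 2 higher and 1 lower (background 15.2%). Of 24 tested ribosome assembly genes, edgeR called 0 against control (background 0.369% for anti-CTLA-4 and 0.0764% for anti-PD-1), with 9 and 4 positive. For anti-CTLA-4 against anti-PD-1, edgeR's quasi-likelihood test called 2, both higher (background 0.827%). Ebna1bp2, a nucleolar assembly factor, had anti-CTLA-4 values of 119, 613 and 290 CPM and anti-PD-1 values of 0.196, 0.181 and 0.321 CPM (adjusted p = 9.99e-05). Polr1a, the largest subunit of RNA polymerase I, named after its values were seen, had anti-CTLA-4 values of 63.5, 279 and 23.8 CPM and anti-PD-1 values of 0.118, 0.0604 and 0.205 CPM (adjusted p = 0.0317). The Control libraries were at 40.2, 91.4 and 0.140 CPM for Ebna1bp2, 1 of them near-absent, and at 73.2, 98.0 and 21.05 CPM for Polr1a, none near-absent. DESeq2 gave neither gene an adjusted p. Of the 15 assembly genes with an adjusted p, DESeq2 called 1, Ltv1, a small subunit assembly factor named after its values were seen. Ltv1 was lower with anti-CTLA-4 than in control (DESeq2, adjusted p = 0.00391, background 10%) and than with anti-PD-1 (DESeq2, adjusted p = 2.44e-05, background 15.2%). Its values were 36.6, 34.4 and 0.0838 CPM in control, 0.0328, 0 and 0 CPM with anti-CTLA-4, and 35.4, 251 and 0.0877 CPM with anti-PD-1. Ncl and Npm1, abundant nucleolar proteins, were at 636 to 1911 CPM and 224 to 1785 CPM.

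Ribosomal proteins outside the symbol rule were at levels within the range of the core genes. Gnb2l1 (Rack1) had a mean of 376 CPM, Rpsa 325 CPM and Fau 238 CPM over the 9 libraries, and none was called. Rps27a, a small subunit gene made as a fusion with ubiquitin, ranged from 0.281 CPM in anti-CTLA-4 replicate 2 to 201 CPM in Control replicate 3.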

How the data were processed

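The authors deposited raw counts per gene symbol for 9 libraries. The tools TopHat2, HTSeq and DESeq2 and the genome GRCm38 appear, without roles, in the labels, per the submitters' processing notes. For versions, annotation, strand and counting settings the sources used here say nothing. HTSeq summary entries, which stand for no gene, stayed outside library sizes: alignments outside features were 27.1% to 42.0% of all counts, not unique 24.3% to 31.1% and ambiguous 0.631% to 1.13%. Since reads that fit several places were set aside, genes with near-identical copies may read low, and overlapping or antisense genes are uncertain.

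CPM is the count per 1000000 gene counts, with no further factor. Fitted changes come from edgeR 4.0.16 (R 4.3.3; quasi-likelihood F test, robust, TMM factors of 0.407 to 1.26, filterByExpr, minimum count 10), fitted to all 9 libraries by group alone. Adjusted p is Benjamini-Hochberg over 7858 genes, threshold 0.05; SEs were derived from F and are approximate. Log2 CPM for ranges and SDs used TMM and a prior count of 2. The fit was tested on simulated data whose dispersion (spread between libraries) was below the common dispersion of these data, 3.40. What the fit can recover at that higher dispersion was not tested. Alternatives were DESeq2 1.42.0, limma 3.58.1 voom, other factors, other filters, a replicate block and leaving out libraries. Descriptions used Python 3.11.15.

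Transcript lengths, coordinates and 76-base windows (exact matches, either strand) came from GENCODE M21, which matched 90 of the 91 genes, with the lowest-numbered principal coding transcript of each. Named genes were, by rule, the 5 lowest p in each comparison, those called, the highest and lowest per kb, the widest and narrowest ranges, the stalk genes, paralogs at 5 CPM and up to 4 of each other list. Members, lists and tests were chosen with earlier results of these data known. Rpl37rt, Rps12l1, Rps12l2, Rps3a2 and Rps3a3 were classed as paralogs, and the motifs and windows chosen, after the table was seen. Some items are not reported here.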

Additional observations from a re-analysis of the deposited data

How the results depend on the processing

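The number of genes of the symbol rule called kept its value (0) for anti-CTLA-4 against control under every alternative run. DESeq2 called 1 for anti-PD-1 against control (Rps19bp1, not a ribosomal protein) and 3 (Rpl28, Rpl7l1 and Rps19bp1) for anti-CTLA-4 against anti-PD-1, where an adjusted p of 0.10 gave 2 and leaving out 1 library gave 0 to 2 (2 without anti-CTLA-4 replicate 1 or 3, which called Rpl23 and Rps9). For any difference among the 3 groups, the 2 calls fell to 0 with DESeq2, which gave an adjusted p to only 44 of the 83. In that test they also fell to 0 with RLE factors, library totals only, limma voom and the replicate block. The same held with no filter on low counts and with 5 CPM in 6 libraries. Leaving out 1 library gave 0 to 2 there: 0 without any Control library, anti-CTLA-4 replicate 2, anti-PD-1 replicate 1 or anti-PD-1 replicate 3, 1 without anti-PD-1 replicate 2 and 2 without anti-CTLA-4 replicate 1 or 3. Without both libraries with the fewest genes, chosen after seeing the data, it gave 0; the cause was not tested. Same-numbered libraries did not deviate together (r from -0.0345 to 0.0182), nor did libraries of other numbers (-0.0229 to 0.0296). These ranges were alike, so they cannot show whether the numbers pair the mice. The replicate block called 0 in each comparison. Of the fitted changes, Rpl35a for anti-CTLA-4 against control reversed to -0.47 with limma voom and -0.79 without anti-CTLA-4 replicate 2 or without both libraries (leaving out 1 library gave -0.79 to 3.35), and Rps9 to -0.022 and -0.024 in those 2 settings (-0.022 to 3.18); Rpl35a for anti-CTLA-4 against anti-PD-1 reversed to -0.49 with limma voom, -1.5 without anti-CTLA-4 replicate 2 and -1.31 without both (-1.5 to 2.64). Of 283 fitted changes under alternatives, 270 kept direction and side of the threshold. The mean share of gene counts moved with the denominator. It became 1.01% (Control), 1.16% (anti-CTLA-4) and 1.14% (anti-PD-1) with HTSeq entries, and 3.54%, 4.09% and 4.06% without the 20 most counted genes. For anti-CTLA-4 it was 3.65% without mitochondrial genome genes and 4.6% with TMM factors (2.76% without anti-CTLA-4 replicate 2, which alone was at 8.27%); without the 5 most counted members it was 2.19% for anti-CTLA-4 and 2.15% for anti-PD-1. Detected members averaged 72 (Control) and 70.3 (anti-PD-1) at 20 CPM, and 80.7 and 79.7 above 3 counts. The large to small ratio was 1.49 (Control) and 1.55 (anti-PD-1) without the 5 most counted members, and 1.21, 2.59 and 1.33 for Control, anti-CTLA-4 and anti-PD-1 as median CPM per kb. That 2.59 was 1.57 without anti-CTLA-4 replicate 2, which alone was at 4.62.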
